A study of Mus musculus with 8 samples.

Results

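The genes described here are Dot1l and 9 genes around it that human MLL leukaemias bring into MLL fusions or into the complexes of those fusions: Mllt10 (AF10), Mllt6 (AF17), Mllt1 (ENL), Mllt3 (AF9), Aff1 (AF4), Aff4 (AF5q31), Ell, Ell2 and Cdk9. Every probe set that the array's annotation assigns to one of these 10 symbols alone was taken, which gave 26 of the 45037 probe sets tested, for 10 of 18193 named genes. They were chosen by gene name and not by a cut on measured values, but with earlier results of these data known. The arrays compared sorted spleen cells of 4 mice with acute myeloid leukaemia driven by MLL-AF10. CD117pos arrays held the c-kit-high cells and CD117neg arrays the c-kit-negative cells, with 1 array of each fraction from each mouse. The mice are named by the endings of the array titles, _948, _951, _952 and _953. All leukaemias had been started from c-kit+ bone marrow stem and progenitor cells that carried the fusion by retrovirus and were immortalised. Recipients were syngeneic CD57BL/6 mice (spelled as in the labels) after sub-lethal irradiation, so host blood cells may remain in either fraction, and no source used here gives the age of the mice. The labels do not say whether the retrovirus carried a human or a mouse AF10 sequence, so whether the Mllt10 probe sets also see the fusion transcript is not known.

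Dot1l methylates lysine 79 of histone H3 (H3K79) within transcribed genes. AF10 and AF17 bind Dot1l directly and stimulate its use of nucleosomes, while ENL and AF9 read acylated histones through a YEATS domain and bridge Dot1l or the AFF scaffolds to chromatin. Aff1 and Aff4 are the scaffolds of the super elongation complex, which holds an Ell elongation factor together with P-TEFb, the kinase made of Cdk9 and a cyclin T that releases paused RNA polymerase II. MLL fusions with AF10, AF17, ENL, AF9, Aff1, Aff4 or Ell bring H3K79 methylation or elongation activity to MLL target genes. Leukaemias with MLL-AF10 are known to depend on Dot1l.

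Upstream windows are shown for Ell2, the member with the largest difference, and for Cdk9, the kinase, both of which had a probe set that fell. They are the 250 bases before the start in RefSeq (build GRCm38.p6), read 5′ to 3′ on the gene's strand. For 6 of the 10 members, Dot1l, Mllt10 and Aff4 among them, the window in the promoter table reaches into the gene record, so their windows are not shown. Capitals mark 4 motifs searched on both strands: the GC box GGGCGG, the CCAAT box CCAAT, the TATA box TATAAA and the E-box CACGTG. A match is a description of the letters only.
Ell2 chr13:75707234-75707483 (plus strand): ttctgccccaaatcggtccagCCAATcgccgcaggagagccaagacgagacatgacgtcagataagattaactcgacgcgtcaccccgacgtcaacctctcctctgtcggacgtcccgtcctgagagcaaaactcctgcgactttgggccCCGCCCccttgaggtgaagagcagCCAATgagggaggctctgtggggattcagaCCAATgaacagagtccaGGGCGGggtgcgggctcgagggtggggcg
Cdk9 chr2:32712785-32713034 (minus strand): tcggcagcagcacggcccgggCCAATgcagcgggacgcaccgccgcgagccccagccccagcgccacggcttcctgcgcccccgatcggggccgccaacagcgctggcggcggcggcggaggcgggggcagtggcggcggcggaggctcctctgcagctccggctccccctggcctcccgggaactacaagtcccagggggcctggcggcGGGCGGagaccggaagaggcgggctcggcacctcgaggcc
The Ell2 window holds 2 GC boxes and 3 CCAAT boxes, and the Cdk9 window holds 1 of each. A GC box is present in 32.7% and a CCAAT box in 33.8% of the 32851 RefSeq windows of this length. Neither window holds the TATA box, present in 12.4% of all windows, or the E-box, present in 6.0%. The GC content was 61.2% in the Ell2 window and 78.8% in the Cdk9 window, where the median of all windows was 52.4%.

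Kit, the gene of the sorted surface receptor, checks the labels and is no finding: its intensity was 751 ± 127 in CD117pos and 28.6 ± 9.73 in CD117neg arrays (SD, n = 4 each). All intensities are the deposited linear values, differences are CD117pos minus CD117neg on the log2(intensity + 16) scale with their SE, and adjusted p-values come from limma over all 45037 probe sets with the mouse as a block. Log2 differences understate the change of dim probe sets, and array medians of 27.5 to 32.8 are used as a mark of dimness. Over all probe sets, 4892 were lower and 2524 higher in CD117pos at an adjusted p under 0.05, so that 34.0% of calls were higher. That share was 51.4% after quantile normalisation and 45.1% after centring on array medians. Among probe sets with a mean intensity of at least 50, quantile normalisation moved the median difference from -0.07 to 0.09, and values after it are given wherever a call or a direction of a member changed. The CD117pos array of mouse _951 stood apart. Its correlations with the other 3 CD117pos arrays were 0.928 to 0.930, while those 3 correlated at 0.985 to 0.987 with each other. Its 3′ over 5′ signal ratio of the Gapdh control was 5.44, against 2.56 to 2.77 in the other CD117pos arrays. Several marker lists moved with the sort. Of 9 monocyte and macrophage markers, 6 were lower and 0 higher in CD117pos, with summed intensities of 2103 to 6868 in CD117pos and 20861 to 29729 in CD117neg arrays. Of 6 late neutrophil markers, 5 were lower and 0 higher, with sums of 8150.5 to 16678 in CD117pos and 33562 to 38332 in CD117neg arrays. None of 5 T cell markers passed, with sums of 51.2 to 557 in CD117pos and 103 to 138 in CD117neg arrays, where the highest sum was that of mouse _951 (Cd8a at 537) and Cd3d and Cd4 lay at 1 to 7.42 in all arrays. None of 5 B cell markers passed either, with sums of 139 to 715 in CD117pos and 631 to 1224 in CD117neg arrays, nor of 4 NK cell markers (52.2 to 94.4 in CD117pos and 73.9 to 78.1 in CD117neg) or of 5 platelet markers (95.3 to 141 in CD117pos and 95.2 to 151 in CD117neg). Of 5 erythroid markers only Tfrc, the transferrin receptor gene, passed, with a rise of 1.14 ± 0.15 (adjusted p = 0.00642). Sums were 2740.1 to 4152 in CD117pos and 1281 to 1658 in CD117neg arrays. Most of each sum was Tfrc, at 2579 to 4079 in CD117pos and 1193 to 1582 in CD117neg arrays. The other 4 erythroid markers had means under 50. Of 6 stroma and endothelium markers only Pecam1 passed, lower in CD117pos (adjusted p = 0.017), with sums of 152 to 805 in CD117pos, the highest in mouse _951, and 239 to 276 in CD117neg arrays. Of 5 general blood and myeloid markers, Mpo was higher and Ptprc, Spi1 and Itgam were lower in CD117pos, with sums of 10341 to 14895 in CD117pos and 10446 to 11556 in CD117neg arrays. In bulk samples, fewer cells of a type and less RNA per cell cannot be told apart, and the part of these markers in the results below was not tested.

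Of the 26 member probe sets, 4 fell and 0 rose in CD117pos cells, which is 15.4% lower against 10.9% of all probe sets, and 0 higher against 5.6%. The probe sets that fell belong to Ell2, Mllt10, Aff4 and Cdk9, 1 each, and each of these genes has at least 1 other probe set that did not pass. An unadjusted p under 0.05 was reached by 9 member probe sets. The groups did not overlap for 7 probe sets that were lower in CD117pos and for 1 that was higher, against 15.0% and 8.08% of all probe sets. The median difference of the 26 was -0.17, where that of all probe sets was -0.02. Of all 26, 13 were dim, with a mean intensity under 50, and 7 of these lay below the array median on all 8 arrays. The other 13 had a mean of at least 50, among them Mllt10 1442070_at, whose CD117pos mean was 46.8 and whose CD117neg mean was 94.5. All 4 falls were among the 13 with a mean of at least 50 (30.8%), where calls were also more common over the array. Of the 19600 probe sets with such a mean, tested alone, 4865 fell and 2780 rose. With any of the mice _948, _952 and _953 left out, the number of falls was 0, and with mouse _951 left out it was 5. A pseudocount of 1 also gave 0.

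**Figure D1:**
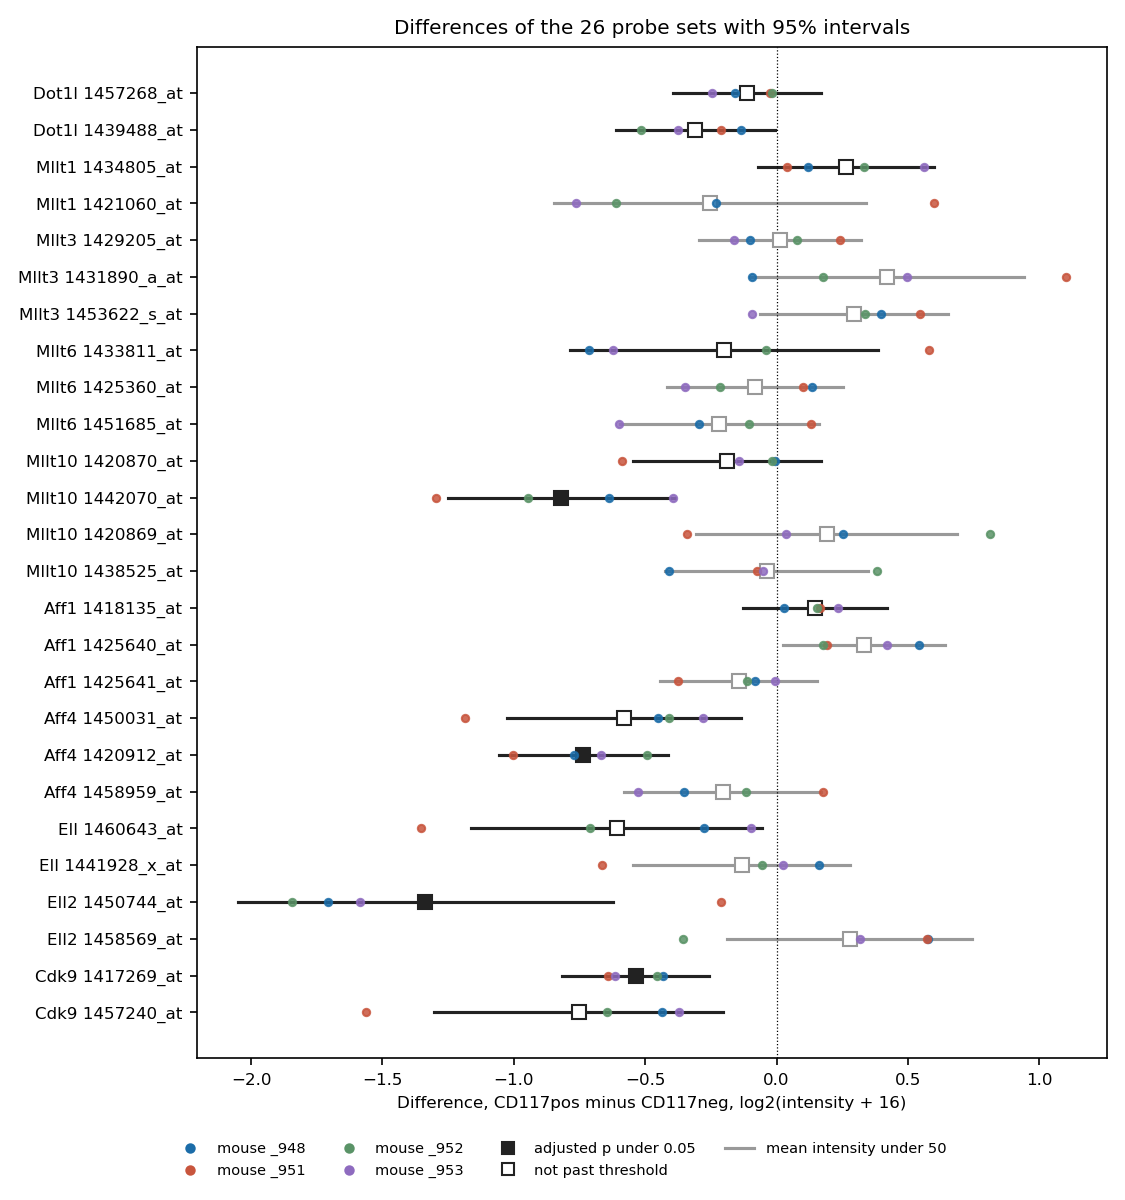
Differences between CD117pos and CD117neg cells for the 26 probe sets, in log2(intensity + 16), with squares for the fitted difference, lines for its 95% interval and dots for the 4 mice. The 4 filled squares, one each of Mllt10, Aff4, Ell2 and Cdk9, passed an adjusted p of 0.05 and all lie left of 0.

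Dot1l itself did not pass on either probe set. On probe set 1457268_at its intensity was 294, 399.8, 347 and 312 in the CD117pos arrays of mice _948, _951, _952 and _953, and 330.1, 407, 351 and 373 in the CD117neg arrays in the same order. The groups overlapped, and each mouse had the slightly lower value in its CD117pos array. The difference was -0.11 ± 0.11 with a 95% interval from -0.39 to 0.17 (limma, adjusted p = 0.59), and it turned to 0.05 after quantile normalisation. For this probe set the interval leaves out a change of 1.5-fold in either direction but not all smaller ones. Probe set 1439488_at read 60.3, 61.4, 57.1 and 58.1 in CD117pos and 67.8, 73.6, 88.5 and 80.3 in CD117neg arrays. Here the groups did not overlap, and the difference of -0.31 ± 0.12 missed the threshold (adjusted p = 0.161). It lay between -0.38 and -0.18 under the alternatives tried and passed under none of them.

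Mllt10, the mouse AF10 gene, differed between its 4 probe sets. Its brightest, 1420870_at, read 1152, 846, 1404 and 1206 in CD117pos and 1157, 1279.7, 1423 and 1332 in CD117neg arrays. In 3 mice the fractions lay close together, and in mouse _951 the CD117pos value was the lowest of all 8. The difference was -0.19 ± 0.15 (adjusted p = 0.462), -0.06 without mouse _951 and 0.03 after quantile normalisation. Probe set 1442070_at read 46.9, 30.9, 54.7 and 54.6 in CD117pos against 81.9, 99.3, 120.2 and 76.7 in CD117neg arrays, with no overlap. Its mean intensity was 46.8 in CD117pos and 94.5 in CD117neg arrays. It fell by 0.82 ± 0.18 on the log2 scale (limma, adjusted p = 0.0292), which is 1.76-fold with the constant added to each intensity. It also passed without mouse _951 (adjusted p = 0.0322). It no longer passed when mouse _948 (adjusted p = 0.1), _952 (0.126) or _953 (0.0594) was left out, or at a pseudocount of 1 (0.0686). The remaining Mllt10 probe sets, 1420869_at and 1438525_at, had means of 31.9 to 39.4 and differences of 0.19 and -0.04, with directions that turned under some alternatives.

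Mllt6, encoding AF17, the paralog of AF10 in the Dot1l complex, passed on none of its 3 probe sets. Its brightest, 1433811_at, read 51.7, 119.8, 57.7 and 68.8 in CD117pos and 94.9, 74.8, 59.9 and 115 in CD117neg arrays. The CD117pos array of mouse _951 held the highest value of all, and in the other mice the CD117pos value was the lower one. The difference was -0.20 ± 0.24 (adjusted p = 0.65). Its other 2 probe sets lay below the array median on all 8 arrays. Mllt10 minus Mllt6, as a difference of the within-mouse differences of their brightest probe sets, was 0.01 ± 0.42 (SE, 4 mice, exact permutation test, p = 0.875). In mice _948, _951, _952 and _953 it was 0.71, -1.17, 0.02 and 0.48. It was thus positive in 3 of 4 mice, and the mean near 0 rests on mouse _951.

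Of the YEATS domain readers, Mllt1, encoding ENL, was measured by 1434805_at at 99.1, 85.8, 95.9 and 130.4 in CD117pos and 89.9, 83.0, 72.8 and 83.2 in CD117neg arrays. All 4 mice had the higher value in the CD117pos array, but the groups overlapped. The difference of 0.26 ± 0.14 missed the threshold (95% interval from -0.07 to 0.60, adjusted p = 0.267). Its dimmer probe set, 1421060_at, differed by -0.25 ± 0.24. Mllt3, encoding AF9, was dim on all 3 probe sets, with group means from 6.16 to 17.7, and the brightest, 1429205_at, lay below the array median on all 8 arrays. Differences of the Mllt3 probe sets ran from 0.01 to 0.42, none past the threshold (adjusted p between 0.245 and 0.961). At this signal, a change of Mllt3 was not measurable in these arrays. The pair Mllt1 minus Mllt3 differed by 0.25 ± 0.19, higher in 3 of 4 mice (exact permutation test, p = 0.25). With Mllt3 this dim, that value mostly carries the Mllt1 difference and cannot compare the paralogs.

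**Figure D2:**
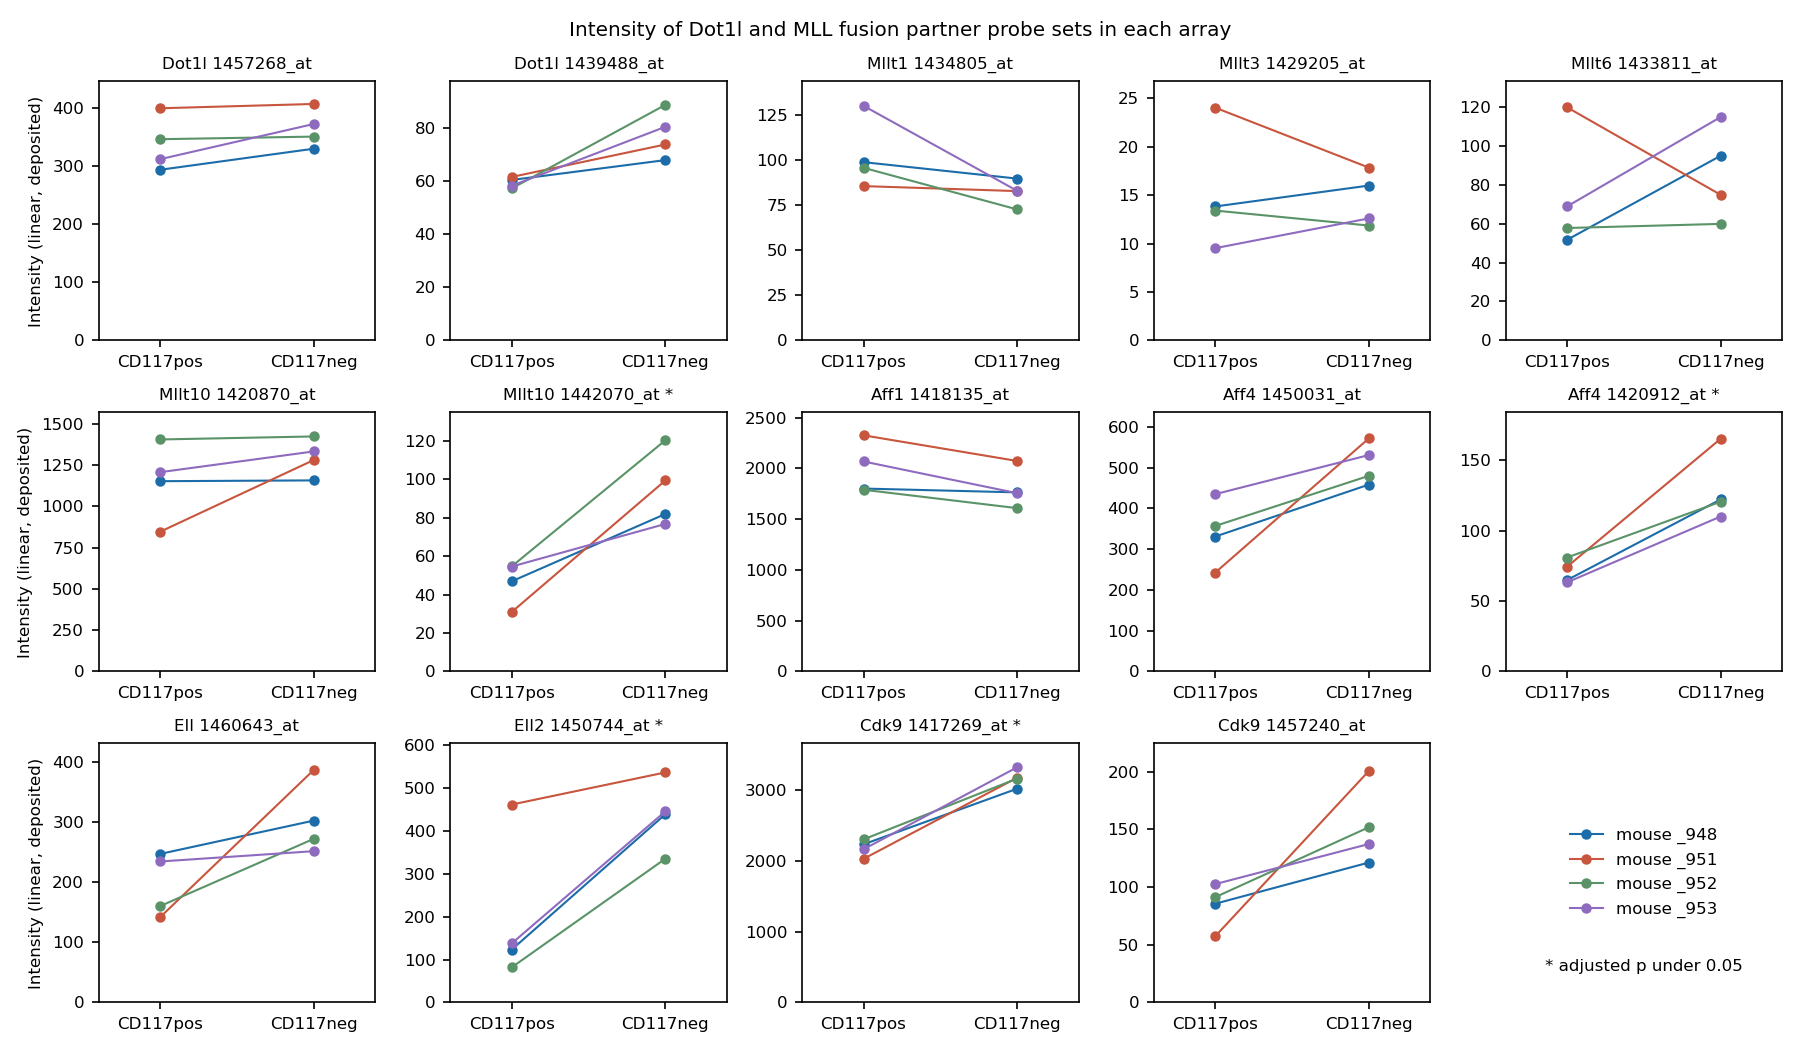
Deposited intensity (linear axes from 0) of the 13 probe sets with a mean of at least 50 and of the brightest Mllt3 probe set, with CD117pos left of CD117neg and a line for each mouse. Both Cdk9 probe sets are lower in CD117pos in all 4 mice, while Ell2 is lower by far in 3 mice and close to its CD117neg level in mouse _951.

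The AFF scaffolds gave different values. Aff1, encoding AF4, read 1802, 2326, 1790.2 and 2069 on 1418135_at in CD117pos and 1764, 2074, 1609 and 1756 in CD117neg arrays. Each mouse had the higher value in its CD117pos array, by small amounts, and the groups overlapped. The difference was 0.15 ± 0.11 (95% interval from -0.13 to 0.42, adjusted p = 0.462). Of its 2 dimmer probe sets, 1425640_at had no overlap and differed by 0.33 ± 0.13 (adjusted p = 0.14), and 1425641_at differed by -0.14 ± 0.12.

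Aff4 was lower in CD117pos on both of its probe sets above the array median. Probe set 1420912_at read 64.9, 74.3, 80.9 and 63.2 in CD117pos and 122, 165, 120.5 and 110.0 in CD117neg arrays, so that the highest CD117pos value was well under the lowest CD117neg value. Its mean intensity was 70.8 in CD117pos and 129 in CD117neg arrays. It fell by 0.73 ± 0.13 on the log2 scale (limma, adjusted p = 0.0168), which is 1.66-fold with the constant added to each intensity. It also passed without mouse _951 (adjusted p = 0.0196). It missed the threshold when mouse _948 (adjusted p = 0.0891), _952 (0.0545) or _953 (0.0743) was left out, or at a pseudocount of 1 (0.052). The brighter 1450031_at read 331, 243, 357 and 435 in CD117pos and 459, 572, 480.0 and 531 in CD117neg arrays, also without overlap. Its difference of -0.58 ± 0.18 missed the threshold (adjusted p = 0.0855), and the mean of the gene's 3 probe sets passed with -0.51 (adjusted p = 0.0213). In the pair Aff1 minus Aff4, the difference of differences was 0.73 ± 0.21, positive in 4 of 4 mice and 0.52 without mouse _951. The exact permutation test gave p = 0.125, the smallest that 4 mice allow, and 0.5 after adjustment over the 4 pairs.

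Ell2 had the largest difference of all members. The elongation factor's main probe set, 1450744_at, read 123, 462, 82.0 and 138 in CD117pos and 439, 537, 335 and 446 in CD117neg arrays. In mice _948, _952 and _953 the CD117pos value was below every CD117neg value, while the CD117pos array of mouse _951 lay among the CD117neg arrays. Mean intensities of this probe set were 201 in CD117pos and 439 in CD117neg arrays. The difference was -1.34 ± 0.29 (limma, 95% interval from -2.05 to -0.62, adjusted p = 0.0302), or 2.52-fold with the constant added to each intensity. Within mice it was -1.71, -0.21, -1.84 and -1.59 in the order given. Without mouse _951 it was -1.71 with an adjusted p of 0.0012, and without only its CD117pos array and the block -1.81 (adjusted p = 0.000423). The call ended after quantile normalisation (-1.14, adjusted p = 0.0581), without the block (0.0656), with a pseudocount of 1 (0.0689), with the mean of both probe sets (-0.53, adjusted p = 0.138) and without mouse _948 (0.136), _952 (0.129) or _953 (0.134). The other Ell2 probe set, 1458569_at, lay below the array median on all 8 arrays.

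Ell, the paralog first found fused to MLL, read 247, 141, 159.9 and 234 on 1460643_at in CD117pos and 302, 386, 272 and 251 in CD117neg arrays. The groups did not overlap, although in mouse _953 they were close. The difference was -0.61 ± 0.23 (adjusted p = 0.136), and it was -0.36 without mouse _951, whose own difference was -1.35. Probe set 1441928_x_at was below the array median on all 8 arrays. Mouse _951 thus had the largest difference of the 4 mice for Ell and the smallest for Ell2. The pair Ell minus Ell2 differed by 0.73 ± 0.63 over 4 mice (exact permutation test, p = 0.375), and by 1.35 without mouse _951.

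Cdk9, the kinase of P-TEFb, was lower in CD117pos on both probe sets. Probe set 1417269_at read 2229.7, 2025, 2299 and 2159.7 in CD117pos and 3014, 3169, 3157 and 3317 in CD117neg arrays, with a wide gap between the groups and little spread within them. It fell by 0.54 ± 0.11 on the log2 scale (limma, 95% interval from -0.82 to -0.26, adjusted p = 0.0286), or 1.45-fold with the constant added. The within-mouse differences lay between -0.64 and -0.43. After quantile normalisation the difference was -0.33 (adjusted p = 0.111) and after centring -0.44 (0.0592). The call was also lost when mouse _948 (0.104), _952 (0.102) or _953 (0.115) was left out and at a pseudocount of 1 (0.107), but held when mouse _951 was (0.0372). Probe set 1457240_at read 85.5, 57.3, 91.2 and 102 in CD117pos and 121, 201, 152 and 137 in CD117neg arrays. Its difference of -0.75 ± 0.22 missed the threshold (adjusted p = 0.0755) and passed without mouse _951 at -0.48 (0.0469).

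No member probe set differed between the 4 mice at the threshold by the moderated F-test on the mouse terms of limma, where the lowest adjusted p was 0.748, 0 had an unadjusted p under 0.05, and 0 of all 45037 probe sets passed.

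**Figure D3:**
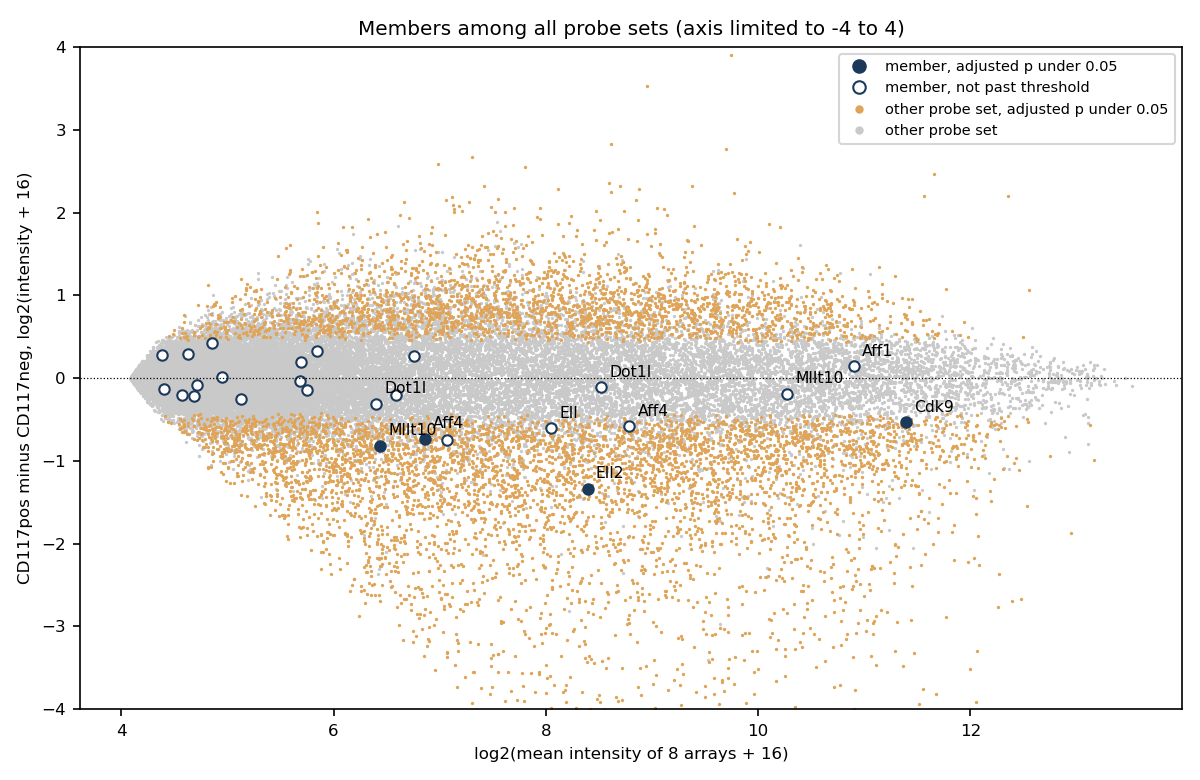
Difference between CD117pos and CD117neg against mean level for all 45037 probe sets (small dots, coloured where past an adjusted p of 0.05) and for the 26 member probe sets (circles, filled where past it), both axes in log2 units, with probe sets that differ by over 4 outside the axis. Ell2 is the lowest member at -1.34. The brightest probe sets of Dot1l, Aff1 and Mllt10 lie between -0.19 and 0.15, and the other Dot1l probe set lies at -0.31.

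Genes whose profile over the 8 arrays was most like that of a member were sought among 8528 genes with a mean intensity over 100. Ell2 was followed most closely by Kdm5b, a histone H3 lysine 4 demethylase gene, with a Pearson r of 0.987, by Son, a splicing protein gene, with 0.979, and by Celsr3, a cadherin receptor gene, with 0.976. Kdm5b differed by -2.05 ± 0.31 (limma, adjusted p = 0.00997), Celsr3 by -0.63 ± 0.15 (0.0397) and Son by -0.29 ± 0.13 (0.214). Dot1l was followed by Gt(ROSA)26Sor at 0.982, and by C1galt1 and Rbm4b at 0.967 each. Mllt10 was followed by Nemp2 at 0.994, Ints3, an Integrator complex subunit gene, at 0.990, and Wdr48 at 0.987. The genes named for Dot1l and Mllt10 did not pass the threshold (limma, adjusted p between 0.229 and 0.672). These correlations describe 8 arrays that share fractions, mice and the array of mouse _951 that stood apart. They are also the highest of 8528, and picking the highest over so few arrays can give large r for unrelated genes.

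Related genes were taken from 5 lists, each gene by its brightest probe set. Among all 18193 named genes taken this way, 12.9% fell and 7.53% rose, with a median difference of -0.01. That share includes dim genes, while the lists held 4, 0, 0, 2 and 0 genes with a mean under 50, in the order below. Of the 19600 probe sets with a mean of at least 50, tested alone, 4865 fell and 2780 rose. The list counts are therefore not set against genes of like brightness. Of 10 other genes of the super elongation complex and of P-TEFb with its regulators, 1 fell and 0 rose, with a median of -0.07. The gene that fell was Ccnt2, a cyclin T partner of Cdk9, which read 290.4, 398, 387 and 429 in CD117pos and 552, 878, 725 and 547 in CD117neg arrays. Its difference was -0.81 ± 0.16 (limma, adjusted p = 0.0225), a call that was lost when mouse _948 (0.109) or _952 (0.103) was left out and at a pseudocount of 1 (0.069), and a value that came to -0.39 with the mean of its probe sets. The other cyclin T gene, Ccnt1, named after its values were seen, averaged 894 ± 115 in CD117pos and 1192 ± 202 in CD117neg arrays, with a difference of -0.40 ± 0.13 (adjusted p = 0.0942).

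Of 18 elongation and pausing factors and kinases of the polymerase tail, 3 rose and 2 fell, with a median of 0.23. The kinase gene Cdk12 averaged 161 ± 34.7 in CD117pos and 279 ± 45.4 in CD117neg arrays, and fell by 0.74 ± 0.17 on the log2 scale. Its relative Cdk13 averaged 113 ± 13.2 in CD117pos and 190.3 ± 25.0 in CD117neg arrays, and fell by 0.67 ± 0.12. Cdk7, the kinase of TFIIH, averaged 896 ± 86.0 in CD117pos and 601 ± 42.8 in CD117neg arrays, a rise of 0.56 ± 0.14. The other 2 rises, named after their values were seen, were Nelfe of the pausing factor NELF, by 0.56 ± 0.13, and Ctr9 of the PAF1 complex, by 0.47 ± 0.12. Adjusted p among these 5 lay between 0.0171 and 0.0458, and with mouse _948, _952 or _953 left out, or at a pseudocount of 1, no gene of this list passed. With the mean of each gene's probe sets 1 rose and 0 fell, at -0.34 for Cdk12 (adjusted p = 0.0974), -0.36 for Cdk13 (0.098), 0.33 for Cdk7 (0.0862) and 0.30 for Ctr9 (0.099). After quantile normalisation 7 rose and 1 fell.

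Ubiquitin on histone H2B stimulates Dot1l. Of 8 genes that place or remove this mark or act against Dot1l, 1 fell and 0 rose, with a median of -0.30. It was Ube2b, a ubiquitin-conjugating enzyme gene, with 1299 ± 265 in CD117pos and 2311 ± 386 in CD117neg arrays, a difference of -0.83 ± 0.16 (limma, adjusted p = 0.0206) that missed the threshold at a pseudocount of 1 (0.0667) and when mouse _948, _952 or _953 was left out (0.0737 to 0.0858).

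Kmt2a, the mouse MLL gene, and 22 other measured fusion partners made up the list with the most calls: 10 fell and 1 rose, with a median of -0.52. Afdn, encoding the junction protein AF6, averaged 109.7 ± 23.2 in CD117pos and 330.3 ± 43.3 in CD117neg arrays. It fell by 1.47 ± 0.17 (limma, adjusted p = 0.00441), and by 0.55 with the mean of its probe sets. Foxo3, a forkhead transcription factor gene, read 335, 978, 354 and 320.3 in CD117pos and 1038, 1463, 976 and 1499 in CD117neg arrays. It fell by 1.44 ± 0.26 (adjusted p = 0.0169), and the CD117pos array of mouse _951 lay at the lowest CD117neg level. The Foxo3 call was lost when mouse _948 (0.0903), _952 (0.0807) or _953 (0.069) was left out, and the value was -0.92 with the mean of its probe sets. Mllt11 averaged 81.0 ± 11.0 in CD117pos and 185 ± 30.7 in CD117neg arrays and fell by 1.05 ± 0.14. The falls of Afdn and Mllt11 passed under all 15 alternatives, where Mllt11 came to -0.59 with the mean of its probe sets. Kmt2a, named after its values were seen, averaged 281 ± 34.4 in CD117pos and 439.9 ± 125 in CD117neg arrays and fell by 0.59 ± 0.14 (adjusted p = 0.0356), a call lost under 8 of the 15 alternatives, quantile normalisation (-0.42), centring (-0.50) and the mean of its probe sets (-0.34) among them. Whether the Kmt2a probe set also sees the fusion transcript is not known. The 1 rise was Septin11, by 0.89 ± 0.17 (adjusted p = 0.0188), also named after its values were seen. It was 0.37 with the mean of its probe sets (adjusted p = 0.168), and it missed the threshold at a pseudocount of 1 (0.0556) and when mouse _948, _952 or _953 was left out (0.0531 to 0.0862). The number of falls in this list was 6 after quantile normalisation, 4 with a pseudocount of 1, and 2, 3 and 2 without mice _948, _952 and _953.

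Of 13 genes that MLL fusions switch on with the help of Dot1l, 2 rose and 2 fell, with a median of -0.02. Bcl2, the survival gene, read 146, 778, 309 and 188 in CD117pos and 1181, 1824, 674 and 2000.3 in CD117neg arrays. It fell by 2.12 ± 0.42 on the log2 scale (limma, adjusted p = 0.0224), and missed the threshold when mouse _948 (0.107) or _953 (0.0862) was left out and at a pseudocount of 1 (0.0542). With the mean of its probe sets it was -1.39. Jmjd1c, a histone demethylase family gene, averaged 1059 ± 290.2 in CD117pos and 1849 ± 126 in CD117neg arrays and fell by 0.83 ± 0.20, but not past the threshold after quantile normalisation (adjusted p = 0.0853) or centring (0.0595), at a pseudocount of 1 (0.0956), nor when mouse _948, _952 or _953 was left out (0.0781 to 0.148). Myc averaged 494 ± 41.7 in CD117pos and 203 ± 32.7 in CD117neg arrays. Its rise of 1.23 ± 0.15 (adjusted p = 0.00562) passed under all alternatives that kept its probe set. The other rise, Eya1, a transcriptional coactivator gene named after its values were seen, lay at the threshold (0.75 ± 0.19, adjusted p = 0.0499) and missed it under most alternatives, with 0.48 for the mean of its probe sets.

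**Figure D4:**
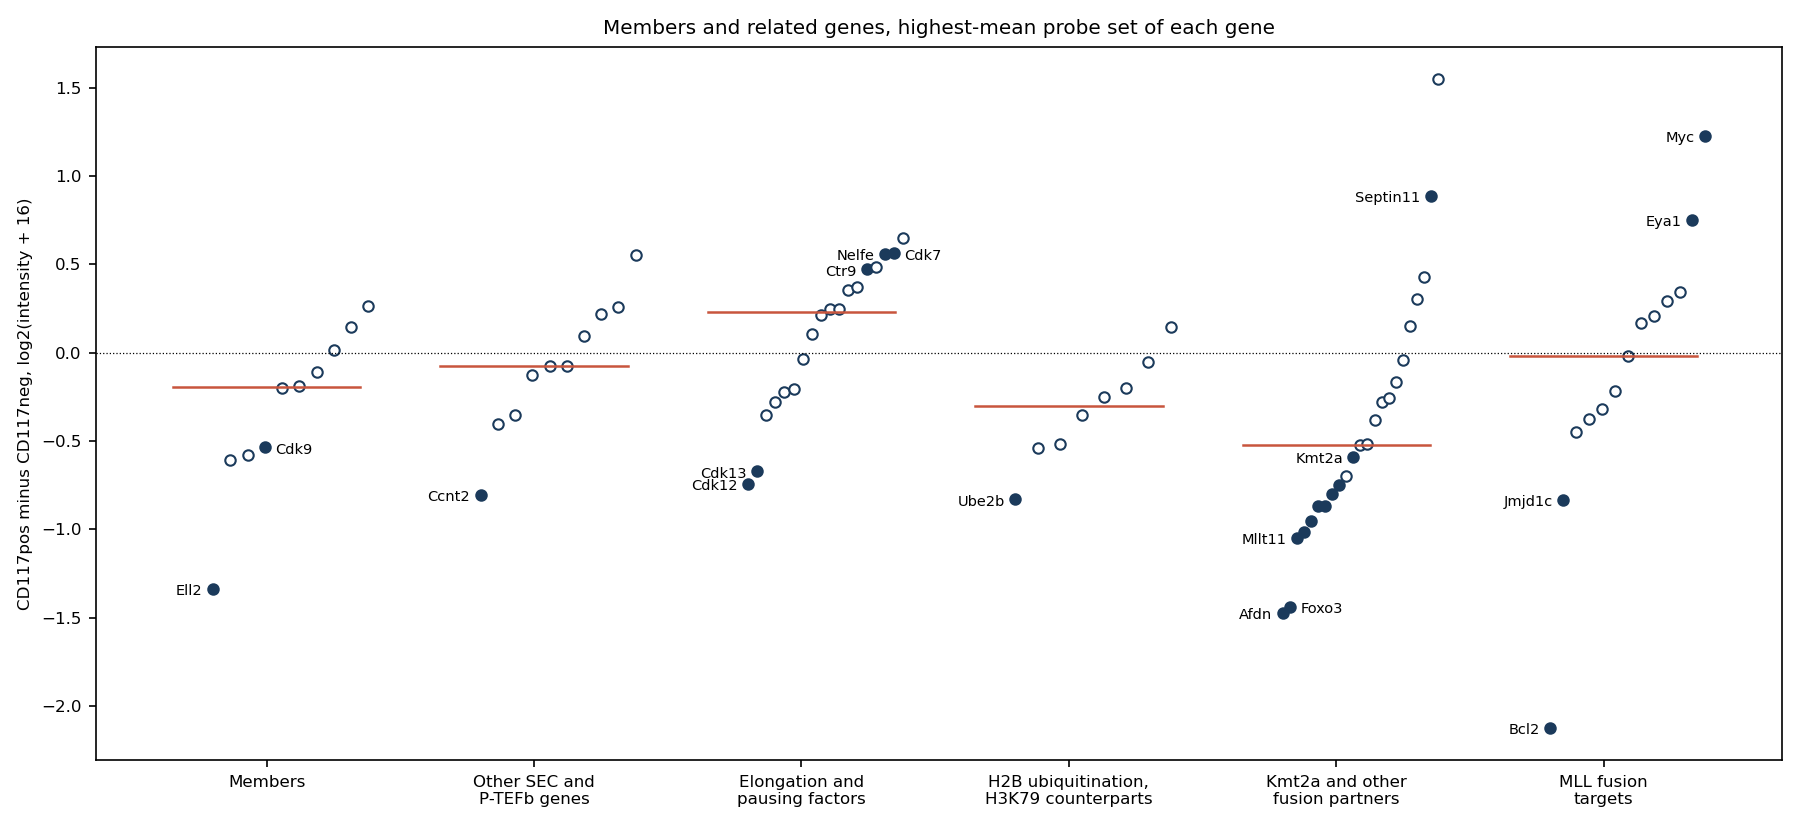
Differences between CD117pos and CD117neg in log2(intensity + 16) for the brightest probe set of each gene, with members at the left and the 5 lists beside them; filled circles passed an adjusted p of 0.05 and lines give medians. The members and the fusion partners lie mostly below 0, with medians of -0.19 and -0.52, and the elongation and pausing factors have a median of 0.23.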

How the data were processed

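Values were deposited by the authors as an intensity on a linear scale for 45101 probe sets of a 1-colour Affymetrix array. Per the labels' protocols, a 2-cycle kit amplified the RNA before biotin labelling. No source used here names the summarising software or the scaling applied between arrays. Values of exactly 1 look like a floor (841 to 898 on each array). The tests left out 64 controls, and genes were named from the platform annotation where it lists 1 symbol (34945 probe sets). Intensities were transformed as log2(intensity + 16) and fitted by lmFit and eBayes of limma 3.58.1 (R 4.3.3), two-sided and with the mouse as a fixed block, with Benjamini-Hochberg adjustment over 45037 probe sets. The script was tested on simulated data. Both fractions came from the same mice, per the design text, and deviations of the 2 fractions correlated within mice at 0.181, 0.173, 0.195 and 0.0579. For mouse _953 the correlation with another mouse was higher (0.115), so the block rests on the design text and not on this check. Paralog pairs were compared by exact two-sided permutation of fractions within mice. Figures used matplotlib 3.10.9. The members and lists were chosen with earlier results of these data known. Named were all members, up to 3 called genes of each list with the largest change, and the 3 genes most correlated with Dot1l, Mllt10 and Ell2. Alternatives covered pseudocount, scaling, dim filter, block, variance trend, probe set choice and left-out arrays. Precision is limited by how few arrays there are. With no statement that the 4 mice carried separate transductions, p-values measure only how the difference between fractions varied among these mice.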

Additional observations from a re-analysis of the deposited data

Results flagged for a closer look

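Of the groups of 4 values checked for a sample far from the other 3, 12 stood out, where chance gives about 1 in 20, or 7.1 here. Of these, 6 belong to mouse _951. For Ell2 (1450744_at) that array read 462, against 82.0 to 138 in the other CD117pos arrays, and the within-mouse difference was -0.21, against -1.84 to -1.59. For Foxo3 it read 978, against 320.3 to 354, and the within-mouse difference of Ube2b was -1.32, against -0.70 to -0.63. The same array had 3′ over 5′ ratios of 5.44 for Gapdh and 3.21 for beta-actin, against 2.56 to 2.77 and 1.72 to 1.91 in the other CD117pos arrays. The part of this in the Ell2 and Foxo3 values was not tested.

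In mouse _948, Aff1 read 43.1 on 1425641_at in CD117pos, against 32.0 to 32.4 in the others, and 26.0 on 1425640_at in CD117neg, against 37.1 to 39.0. Its CD117neg array also read 153 for Cdk13, against 202 to 205, had 882 values at the floor, against 841 to 846, and had a Gapdh ratio of 2.76, against 3.16 to 3.23. In mouse _952, Mllt1 read 33.5 on 1421060_at in CD117neg, against 15.8 to 18.5.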

How the results depend on the processing

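Under 15 alternatives, the 4 member calls kept their direction in all 56 values and their side of the threshold in 35. Of all probe sets, 1134 were higher and 2930 lower with a pseudocount of 1, 1504 and 2511 with 1 probe set for each gene, and 1485 and 2365 with the mean of probe sets, where fewer features were tested. After quantile normalisation 3945 were higher, and 3900 when both the block and the one CD117pos array of _951 were dropped. Leaving out mouse _951 gave 3575 higher and 5571 lower, more than the 2524 and 4892 with all mice. With mouse _948, _952 or _953 left out, 456 to 740 were higher and 1894 to 2278 lower. Member falls numbered 0 with a pseudocount of 1, 2 after quantile normalisation, with 1 probe set for each gene or with the mean, and 0 to 5 without a mouse. Without the replicate block 4 member probe sets fell, with Ell2 (adjusted p = 0.0656) replaced by the second Cdk9 probe set (0.0265). Over the related lists together, 6 rose and 16 fell. The rises were 1 with a pseudocount of 1 or without probe sets of shared sequence, 12 after quantile normalisation, 11 when both the block and that array were dropped, and 1 to 6 without a mouse. The falls were 4 with a pseudocount of 1, 10 after quantile normalisation and 2 to 16 without a mouse. Why these counts moved with pseudocount and scaling was not tested, and leaving out a mouse also leaves fewer arrays.

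Directions turned for small differences, none of them called. After quantile normalisation Dot1l 1457268_at was 0.053, Mllt10 1420870_at 0.031 and Mllt10 1438525_at 0.057. Centring gave 0.055 for Mllt10 1438525_at and 0.01 for Mllt6 1425360_at. With 1 mouse left out, Mllt3 1429205_at ran from -0.062 (without _951) to 0.073, Mllt6 1425360_at from -0.155 to 0.006 (without _953), Mllt10 1420869_at from -0.017 (without _952) to 0.368, Mllt10 1438525_at from -0.178 to 0.085 (without _948) and Ell 1441928_x_at from -0.232 to 0.044 (without _951). Mllt3 1429205_at was -0.113 when both the block and the one CD117pos array of _951 were dropped. Among the pairs, Mllt1 minus Mllt3 came to -0.237 when probe sets were averaged and to 0.091 to 0.401 with a mouse left out. Mllt10 minus Mllt6 came to -0.054 at a pseudocount of 64, to -0.047 when probe sets were averaged and to -0.221 to 0.404 with a mouse left out. Probe sets under the array median carry too little signal to show modest differences.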

Other observations

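Among the related genes, some that did not pass the test had 1 array far from the rest, which was noticed after their values were seen. Satb1, a chromatin organiser gene, read 2.75, 1112, 3.15 and 3.72 in CD117pos arrays of mice _948, _951, _952 and _953, and 186, 146, 11.2 and 9.53 in CD117neg arrays, and so also differed between mice within the CD117neg fraction. Tcea2, an elongation factor gene, read 513 in the CD117pos array of mouse _951, and 62.8 to 82.0 in the other CD117pos arrays. In the fusion partner list, Arhgef12 read 949 in that array, against 38.4 to 80.3 in the other CD117pos arrays. Septin6 was low there, at 87.9 against 719 to 775.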
